A study of Mus musculus with 1012 samples.

Results

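The clustered histone genes are the protein-coding genes of the Hist1, Hist2, Hist3 and Hist4 clusters of the mouse genome, which encode the core histones H2A, H2B, H3 and H4 and the linker histone H1. They were chosen by symbol alone, and 59 of the 30452 features in the count table qualified. Of these, 51 were in the Hist1 cluster on chromosome 13, 5 in Hist2 on chromosome 3, 2 in Hist3 on chromosome 11 and 1 in Hist4 on chromosome 6. The tests below had 25 of the 59, since the other members had too few counts. A member could enter through the state in which it was high, so that the 25 do not stand for all members.

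They were followed across 1012 single-cell libraries, of which 296 were Live-seq libraries, made from cytoplasm drawn out of a living cell with a hollow cantilever, 162 were scRNA-seq libraries from a test of the effect of sampling, and the others were standard scRNA-seq libraries of whole cells. RAW_Mock and RAW_LPS were cells of the macrophage line RAW264.7 given PBS or lipopolysaccharide (LPS), and the sample labels call RAW_Mock not treated. For Live-seq, the study sampled LPS-treated cells a few hours after LPS was added. Nearly all RAW cells were of the RAW-G9 clone, which carries a Tnf-mCherry reporter and a relA-GFP fusion protein. The Live-seq batch 5Reseq held the wild-type line. IBA was an immortalised brown preadipocyte line from young male C57BL6/J mice. ASPC_Pre were primary adipose stem and progenitor cells from subcutaneous fat of female C57BL/6J mice aged 7 to 10 weeks, and ASPC_Post were such cells after 2 days of adipogenic induction with dexamethasone, IBMX, insulin and rosiglitazone. The libraries of the sampling test were IBA cells collected 1 h or 4 h after Live-seq sampling, together with IBA cells that had not been sampled. Unless stated otherwise, a level is given as counts per 1000000 (CPM) of the counts summed over the cells of a batch and state. Ribosomal protein genes and 20 negative-control genes were left out of the total, and n is the number of such sums. Differences in a sum may lie in the number of cells that express a gene or in the RNA per cell. A sum alone does not tell these apart, and shares of cells with a count are given for some members.

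Cells need new histones whenever they copy their DNA, and most clustered histone genes are transcribed in S phase. Their mRNAs are unusual in that most end not in a poly(A) tail but in a short hairpin, which is bound by the stem-loop binding protein Slbp, directs processing and stabilises the mRNA during replication. Some of these genes can also give polyadenylated mRNAs, for example in cells that have left the cycle. Both library types were primed with oligo-dT, so that the counts are of RNA that such a primer could capture.

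Total counts per cell ranged from 38451 to 2671609, with medians between 396776 and 741774 in the 13 groups. Macrophage markers, such as Cd68 and Lyz2, summed to between 2934 and 34872 CPM in RAW sums and to at most 606.7 CPM in IBA and ASPC sums, and mesenchymal markers, such as Col1a1 and Sparc, to at most 5.63 CPM in RAW sums and at least 2614 CPM in the others. A single cell went against its label. It was a scRNA-seq IBA cell of batch 9_1 with 31780 CPM of macrophage markers and none of the mesenchymal markers, and without it the mean summed level of the clustered histone genes in scRNA-seq IBA cells was 267.2 CPM in place of 266.9 CPM.

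The hairpin was looked for in the annotated transcripts, since it directs the processing of mRNAs without a poly(A) tail. Its presence does not exclude that a member also gives polyadenylated mRNA. The hairpin was defined as a perfect stem of 6 base pairs that begins with GG, around a loop of 4 bases. Of the 59 members, 41 held it after the stop codon, and 0.369% of all annotated protein-coding transcripts held it anywhere, the coding part included. The ends below are from GENCODE vM21 transcripts on GRCm38, written 5′ to 3′ as DNA with the hairpin in capitals, and are shown for members on which the comparisons below turn.
Hist1h1c: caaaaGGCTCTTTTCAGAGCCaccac
Hist1h1e: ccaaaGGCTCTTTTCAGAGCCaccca
Hist1h2be: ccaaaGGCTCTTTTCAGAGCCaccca
Hist1h3c: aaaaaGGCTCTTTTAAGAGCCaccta
Hist1h4i: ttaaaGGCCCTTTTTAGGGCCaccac
Hist1h4d: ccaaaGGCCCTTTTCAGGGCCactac
Hist1h4m: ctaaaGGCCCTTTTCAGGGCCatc

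The hairpin of Hist1h1c, Hist1h1e and Hist1h2be was the commonest and was found in 21 members. That of Hist1h4d and Hist1h4m, which differs within the stem, was found in 7, and those of Hist1h3c and Hist1h4i, whose loops differ, in 6 and 2 members. The annotated transcript ended at the hairpin in 19 members, such as Hist1h4m, and ran past it in 22, by 840 bases in Hist1h1c and 1153 bases in Hist1h1e. In 11 members, among them Hist1h1b and Hist1h2ak, the annotation stopped at the stop codon, so that no end could be read. The other 7 had an untranslated end without the hairpin, and these included Hist1h2bc. The polyadenylation signal AATAAA lay in the last 40 bases of 14 members, against 39.29% of all transcripts.

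The promoters are given because histone genes of a family are known to share promoter motifs. RefSeq promoters were matched for 53 members, and the motifs were searched on both strands in the 250 bases before the start. CCAAT was present in 43 of 53 (81.1%, against 33.8% of 32851 promoters), TATAAA in 28 (52.8% against 12.4%) and TTTGCAT, the core of the octamer found in H2B promoters, in 11 (20.8% against 4.12%), of which 6 encode H2A and 4 H2B. AAACACA, known from H1 promoters, was in 5 of 6 H1 members and 7 members in all (13.2% against 6.25%). The last 120 bases before the start follow for the 3 most abundant H1 genes and for Hist1h2ak, on GRCm38.p6 and in the direction of transcription, with these motifs in capitals (ATTGG is CCAAT on the other strand).
Hist1h1c, chr13:23738687-23738806 (+): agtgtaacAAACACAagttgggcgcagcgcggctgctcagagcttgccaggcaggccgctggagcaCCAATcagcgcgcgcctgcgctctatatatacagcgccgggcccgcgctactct
Hist1h1e, chr13:23622559-23622678 (-): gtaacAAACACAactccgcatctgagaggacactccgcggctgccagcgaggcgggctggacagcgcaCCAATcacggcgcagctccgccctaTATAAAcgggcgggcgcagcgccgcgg
Hist1h1b, chr13:21780626-21780745 (-): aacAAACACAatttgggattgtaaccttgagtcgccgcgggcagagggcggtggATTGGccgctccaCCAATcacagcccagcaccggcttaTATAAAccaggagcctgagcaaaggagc
Hist1h2ak, chr13:21753913-21754032 (-): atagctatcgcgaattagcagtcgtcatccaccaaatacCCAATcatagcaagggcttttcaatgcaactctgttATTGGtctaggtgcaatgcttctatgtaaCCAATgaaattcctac

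The 3 H1 promoters thus shared AAACACA and CCAAT, whereas TATAAA was found in Hist1h1e and Hist1h1b and not in Hist1h1c. Hist1h2ak had CCAAT on both strands and no AAACACA. A motif in these windows is a match of letters and was not tested as a site.

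Summed over all members, the clustered histone genes were highest in primary ASPCs and lowest in LPS-treated RAW cells by the mean over sums, an order that did not hold in each batch. In scRNA-seq, the 3 RAW_Mock sums had 118, 192.9 and 285.7 CPM (198.9 ± 84.1, SD, n = 3) and the 3 RAW_LPS sums 47.8, 133 and 317.7 CPM (166.2 ± 137.98, SD, n = 3). The 3 IBA sums had 125, 308.7 and 367.05 CPM (266.9 ± 126, SD, n = 3). These 3 states overlapped throughout, and in batch 9_1 RAW_LPS was above both others. The 2 ASPC_Pre sums were far apart, with 285.7 CPM in batch 8_8, below IBA cells of that batch, and 939.4 CPM in batch 9_1, and the only ASPC_Post sum had 1167 CPM (counting interval 1151 to 1183).

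In Live-seq, RAW_Mock sums had 69.7, 113.9, 105.4 and 145.2 CPM in batches 6, 7, 8_8 and 9_4 (108.5 ± 31.1, SD, n = 4). RAW_LPS sums of the same batches had 19.1, 29.3, 32.2 and 36.2 CPM, all below RAW_Mock, and that of the wild-type line 156.4 CPM. IBA sums had 51, 234.6 and 72.3 CPM (119 ± 100.4, SD, n = 3). The ASPC_Pre sums, 956.9 and 984.03 CPM (970.5 ± 19.2, SD, n = 2), and the ASPC_Post sum, 1116 CPM, were above every sum of the lines.

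**Figure D1:**
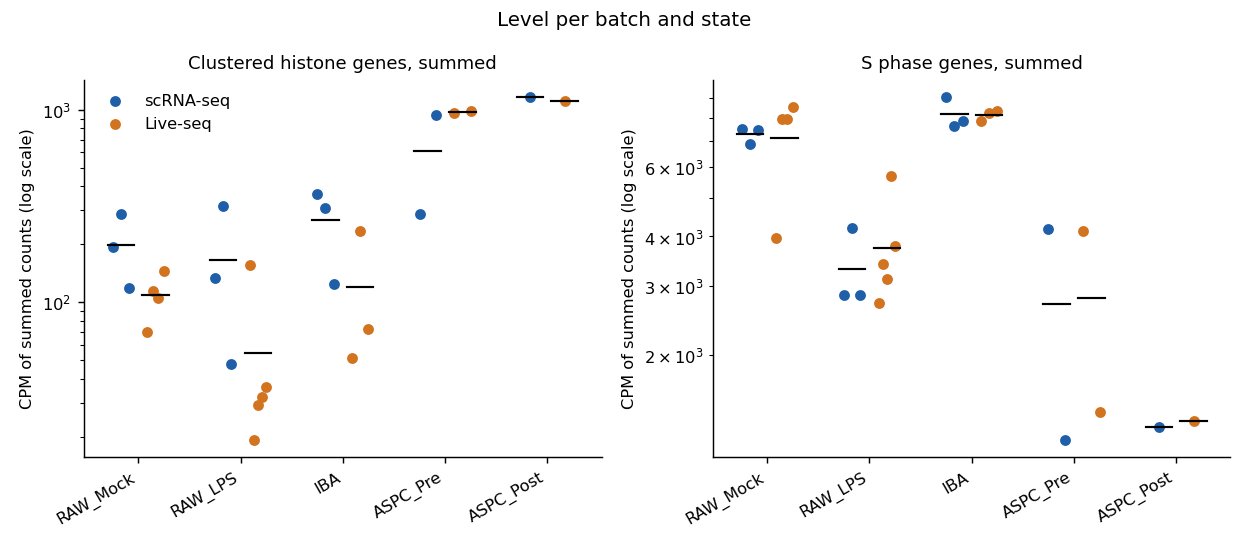
Summed level of the 59 clustered histone genes (left) and of the 43 S phase genes (right), in CPM on a log axis, by state. Each point is a batch and state sum, blue for scRNA-seq and orange for Live-seq, and the bars are means over sums. ASPC_Post is highest on the left, at 1167 and 1116 CPM, and lowest on the right by its means, at 1318 and 1365 CPM.

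The list of S phase genes had another order. It summed to 7269 ± 366.5 CPM in RAW_Mock, 3300 ± 784.8 in RAW_LPS and 8162 ± 762.4 in IBA cells by scRNA-seq (SD, n = 3 each). In ASPCs it was lower than in RAW_Mock and IBA cells in every scRNA-seq sum, at 4173 and 1218 CPM in the 2 ASPC_Pre sums and 1318 CPM in ASPC_Post. In Live-seq it was 4141 and 1440 CPM in ASPC_Pre and 1365 CPM in ASPC_Post, against 7829 to 8312 CPM in IBA and 3971 to 8516 CPM in RAW_Mock, so that the RAW_Mock sum of batch 6 was below the ASPC_Pre sum of batch 8_8. In scRNA-seq the ASPC sums of batch 9_1 thus had the highest clustered histone levels and the lowest S phase levels, and the plot of summed levels shows both orders side by side.

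The genes that made up the sum were not the same in each state. Per kilobase of exon, Hist1h1b and Hist1h1e led in scRNA-seq RAW_Mock cells, at mean levels of 43.5 and 41.8 CPM per kb, Hist1h2ak led in IBA cells at 82.3, and Hist1h2bc and Hist1h1c led in ASPC_Pre cells at 208.6 and 134. Hist1h2bc and Hist1h1c together gave 81.6% of the members' counts in scRNA-seq ASPC_Pre cells and 84.3% after induction, against 8.6%, 5.9% and 16.5% in RAW_Mock, RAW_LPS and IBA cells. By batch, the ASPC_Pre share was 40.4% in 8_8 and 83.7% in 9_1. The same shares, with RAW_Mock, RAW_LPS and IBA first, in Live-seq were 7.5%, 39.5%, 16.1%, 87.9% and 88.2%. Live-seq RAW_LPS stood out among the lines here, and its Hist1h2bc and Hist1h1c counts were mostly from the wild-type line.

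Many members were at very low levels. In scRNA-seq all 59 had a count in at least 1 cell, and in Live-seq 3 had none. A scRNA-seq RAW_Mock cell had counts for a median of 7 members (range 0 to 30), a RAW_LPS cell for 3, an IBA cell for 8, and ASPC_Pre and ASPC_Post cells for 13 and 14. In Live-seq the medians were 2, 1, 2.5, 5 and 8. No member was counted in 11.4% of RAW_LPS cells by scRNA-seq (17 cells) and in 36% by Live-seq (18 of 50 cells). The members' RNA was concentrated in few cells of the lines. The tenth of the cells with the highest summed level held 61.1% of the members' CPM in scRNA-seq RAW_LPS, 36.8% in RAW_Mock and 43.5% in IBA, against 23.9% in ASPC_Pre and 21.6% in ASPC_Post.

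Among the linker histones, which bind the DNA between nucleosomes, Hist1h1e was the most even. Its scRNA-seq sums had 47.2, 77.8 and 117 CPM in RAW_Mock, 23.3, 71.9 and 164.8 CPM in RAW_LPS, and 46.3, 94.2 and 101.2 CPM in IBA cells, which overlapped. In ASPC_Pre it had 76.1 CPM in batch 8_8 and 23.6 CPM in batch 9_1. Hist1h1b, another linker histone, had 12.6, 44.1 and 40.3 CPM in the RAW_Mock sums and 9.37, 39.6 and 22.2 CPM in the IBA sums, again with overlap. Hist1h1c had 8.59 to 13.9 CPM in RAW_Mock, 19.2 to 42.9 CPM in IBA and 80 and 339.55 CPM in ASPC_Pre, so that these 3 states did not overlap.

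Of the core histones, the H2B gene Hist1h2bc had 3.64, 2.77 and 10.0 CPM in the scRNA-seq RAW_Mock sums of batches scRNA, 8_8 and 9_1, and 6.98, 38.1 and 11.3 CPM in the IBA sums. It had 35.5 and 446.7 CPM in ASPC_Pre and 677.3 CPM in ASPC_Post, and was counted in 94 of 95 ASPCs by scRNA-seq, against 34.4% of RAW_Mock cells (54 cells). The H2A gene Hist1h2ak had the opposite pattern in the mesenchymal cells. Its IBA sums had 11.7, 53.6 and 31.7 CPM, and its ASPC_Pre sums 0.729 and 0.0822 CPM. Hist1h3c, the H3 gene with the highest mean level per kb over the scRNA-seq sums (2.28 CPM per kb), stayed at or below 4.17 CPM in every sum.

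The H4 genes encode 1 protein from several copies and differed in where they were counted. Hist1h4d had 4.52 to 24.1 CPM in RAW_Mock and 5.15 to 43.5 CPM in IBA, against 2.59 to 8.02 CPM in ASPC_Pre. Hist1h4i had 2.54 to 6.10 CPM in RAW_Mock, 2.79 to 9.17 CPM in IBA, and 21.2 and 29.8 CPM in ASPC_Pre. Hist1h4m had no count in any RAW_Mock or IBA cell of scRNA-seq, which allows shares of cells with a count of up to 1.91% and 1.96%, but was counted in 42 of 60 ASPC_Pre and 34 of 35 ASPC_Post cells. The level of Hist1h4m is uncertain, since only 10.98% of its 75-base windows occur in no other transcript and reads without a unique position were not counted. The limit is not confined to Hist1h4m. Of the 59 members, 26 had fewer than 50% of such windows, and 18 overlapped exons of other genes. Summed levels and rankings per kb share this limit. An absence of counts does not show that the gene was off.

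**Figure D2:**
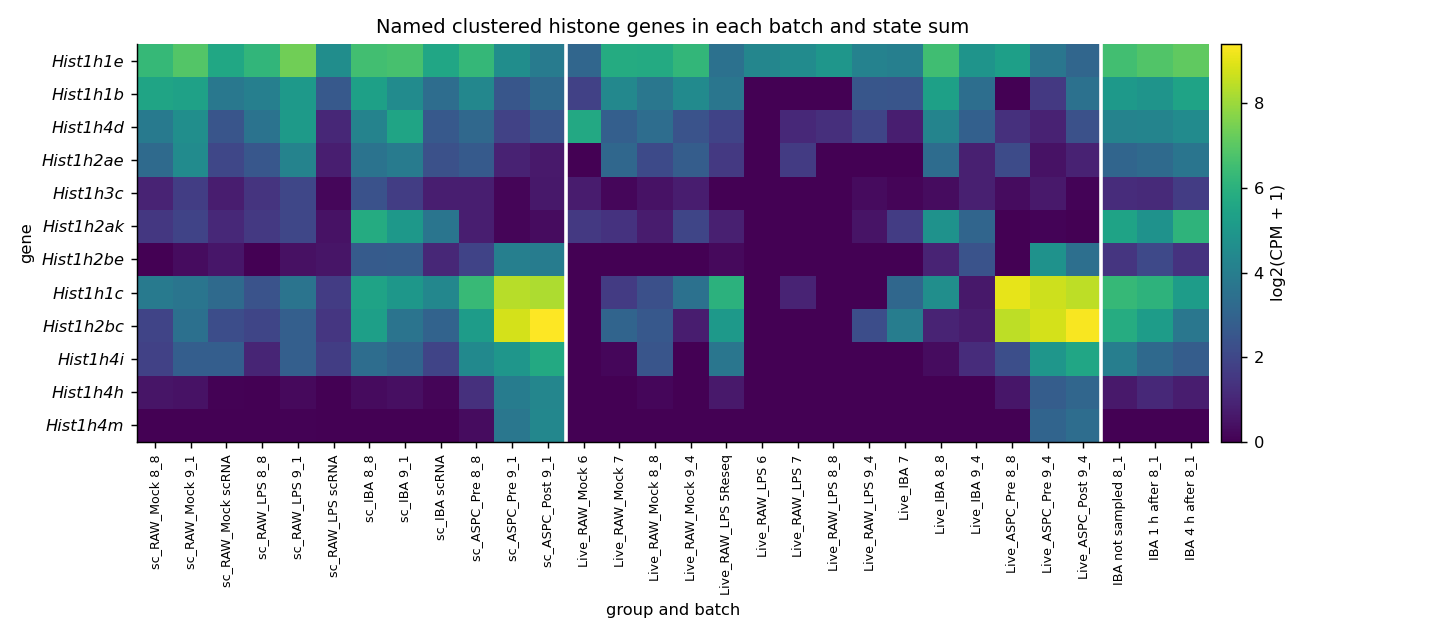
Level of 12 clustered histone genes (rows) in each batch and state sum (columns), as log2(CPM + 1). White lines divide scRNA-seq, Live-seq and the libraries of the sampling test, and Hist1h2bc and Hist1h1c are brightest in the ASPC columns, where Hist1h2bc reaches 677.3 CPM.

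The first test asked how LPS, a bacterial component that activates macrophages, changed the members in RAW cells. By scRNA-seq, none of the 25 members tested passed the threshold of an adjusted p below 0.05 and a change beyond 1 on the log2 scale, in edgeR's quasi-likelihood test on the sums with batch in the model. The background was 1.23% of 13565 genes. A single member had an unadjusted p below 0.05 in edgeR's test, against 14.6% of all genes. It was the H3 gene Hist2h3c2 (-4.77, SE 1.89, adjusted p = 0.289), which is named for its value. DESeq2 also called none of the members, against 5.26% of all genes. The estimates were below 0 for 21 of the 25 members, with a median of -0.74 on the log2 scale, against a median of -0.01 and 49.3% above 0 over all genes. Hist1h1c had an estimate of -1.07 (SE 0.53, adjusted p = 0.410) and Hist1h1b of -0.74 (SE 0.52, adjusted p = 0.60), and Hist1h1e was at 0.02 (SE 0.48).

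The S phase genes, a list that holds replication factors and nucleotide enzymes, had lower estimates in RAW_LPS for all 43 genes tested, with a median of -0.94. Only Ung, the uracil-DNA glycosylase, passed the threshold in edgeR's test (1.23% of all genes did), with a change of -2.35 (SE 0.41, adjusted p = 0.036). None of the 15 tested histone mRNA processing factors, 16 histone chaperones and 11 replication-independent histones was called, and their medians were -0.16, -0.33 and -0.45. Since p-values rest on 3 sums a state, and the study calls the batches experimental replicates without saying whether they were separate cultures, they measure the spread between these sums.

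In Live-seq, the members were lower after LPS in 23 of 25 cases, with a median of -2.64. Over all genes the median was -0.48 and 36.1% were above 0. The 23 include Hist1h4m and Hist1h2be, whose SE of 33131 and 6908 leave no meaning to their sign. No member was called, as was none of 13465 genes (0%). At an unadjusted p below 0.05 there were 4.02% of the genes and 1 member, Hist1h1b, with a change of -5.99 (SE 2.55, adjusted p = 1.000), and DESeq2 called 4.79% of the genes and 2 members, Hist1h1b among them. The SE of the named members ranged upwards from 1.14, for Hist1h1e, so that even large changes were not detectable at this spread. The RAW_Mock and RAW_LPS sums of the RAW-G9 clone did not overlap in the summed level. In the 4 RAW cells that were sampled before and after LPS, the summed level was 176.8, 112.6, 293.5 and 0 CPM before and 0, 21.2, 1.37 and 0 CPM after, lower in 3 and at 0 in both samples of the other. Whether the 2 techniques differed in the LPS effect was tested as an interaction, and none of the 25 members passed, as did none of 13565 genes (0%), with 1 member, Hist1h1b, at an unadjusted p below 0.05 in edgeR's test (lowest adjusted p = 1.000).

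The second comparison was between the lines. RAW_Mock against IBA by scRNA-seq gave 3 called members of 25, all lower in RAW_Mock, against 4569 of 13565 genes (33.7%) in either direction and 2954 (21.8%) in this one. The members' share, 12%, was not above the background. Hist1h2ak was 3.92 lower on the log2 scale (SE 0.74, adjusted p = 0.0031), with RAW_Mock sums of 1.11, 1.85 and 2.70 CPM, all below the IBA sums. Hist1h1c was lower, with a change of -1.50 (SE 0.51, adjusted p = 0.043). The third was the H2B gene Hist1h2be, with a change of -4.23 (SE 1.24, adjusted p = 0.024) and sums of 0 to 0.466 CPM in RAW_Mock and 1.09 to 5.59 CPM in IBA.

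Hist1h1e, the member with the most counts in both lines, did not differ detectably (-0.09, SE 0.47, adjusted p = 0.912). Without batch 8_8 the count of called members was 2, without batch scRNA 2 and without batch 9_1 1. The Hist1h1c call was lost without any of the 3 batches and also without batch in the model, with changes from -1.54 to -1.31. The Hist1h2be call was lost when each cell was thinned to 50000 counts (-2.94) and without batch 8_8 (-3.05) or 9_1 (-3.49). The Hist1h2ak call held in each of these fits, with changes from -4.15 to -3.52. Hist1h2ak shares 35.11% of its exon bases with another gene, and 68.03% of its 75-base windows occur in no other transcript. Hist1h2be shares 11.16% of its exon bases with other genes, among them Hist1h1e, and reads were counted without strand.

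In Live-seq the same comparison called 2.27% of 13465 genes and none of the 25 members. No member had an unadjusted p below 0.05, against 13.7% of the genes, and DESeq2 called none of the members, against 11% of the genes. The estimate was -2.48 (SE 2.18) for Hist1h2ak and -5.42 (SE 2.73) for Hist1h2be, and IBA sums of Hist1h2ak had 2.16, 26.6 and 7.39 CPM against 0.664 to 2.91 CPM in RAW_Mock.

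Of 15 histone mRNA processing factors tested in scRNA-seq, 4 passed between the lines. Over all genes 33.7% passed, and 21.8% passed lower in RAW_Mock, the shares against which the counts of these lists are to be read. Slbp, which binds the hairpin, was lower in RAW_Mock with a change of -1.19 (SE 0.33, adjusted p = 0.018), while the cleavage factors Cpsf3, Sympk and Cpsf2 were higher, by 1.59, 1.38 and 1.23. Of 11 replication-independent histones, which are made outside S phase from polyadenylated mRNA, 4 passed and all were lower in RAW_Mock. These were H1fx, H2afy2, H1f0 and H2afv, with changes of -5.96, -4.87, -2.24 and -1.81. Of 43 S phase genes, 3 passed, all lower in RAW_Mock: Gins2, Mcm4 and Slbp, which is on both lists.

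The third comparison was of IBA with ASPC_Pre cells, an immortalised brown preadipocyte line and primary progenitors of subcutaneous fat. By scRNA-seq, 3 of 25 members were called against 1514 of 13565 genes (11.2%), a share near that of all genes. There was 1 higher in IBA, as were 3.69% of genes, and there were 2 lower, as were 7.47%. Hist1h2ak was higher in IBA, with a change of 6.98 (SE 1.1, adjusted p = 0.0076). Hist1h1c was lower, with a change of -2.54 (SE 0.59, adjusted p = 0.029). Hist1h4m was lower, and since it had no count in IBA its level in ASPC_Pre was at least 237.6-fold higher, taken over all cells against a floor of 3 counts (adjusted p = 0.034). Hist1h4m could enter the test only through ASPCs, where it was high, so its call is a description. Its ASPC_Pre level was 12.1 CPM in batch 9_1 and 0.243 CPM, a single count, in batch 8_8, and the call was lost without batch scRNA and with thinned cells.

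Hist1h2bc, the member with the highest mean level per kb in scRNA-seq ASPC_Pre cells, missed the threshold with a change of -3.18 (SE 1.01, adjusted p = 0.07), as did Hist1h4h with -4.45 (SE 1.25, adjusted p = 0.05 when rounded) and Hist1h4i with -2.15 (SE 0.69, adjusted p = 0.074). Without the IBA cell that went against its label, Hist1h4h was called as well (-4.45), which made 4 members. Hist1h3c and Hist1h4d were higher in IBA by estimate, at 3.2 (SE 1.32) and 2.16 (SE 0.89), with adjusted p = 0.140 in edgeR's test for both.

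The 2 ASPC_Pre sums carried this comparison unequally. Without batch 9_1 the test called 0 members and 43 genes, the change of Hist1h2ak was 5.77 and that of Hist1h1c -1.22, neither of them called, and the change of Hist1h2bc was -0.69 in place of -3.18. Without batch 8_8 it called 5 members, and Hist1h2bc had -5.28 and was called. Without batch scRNA 1 member was called. The S phase list differed between these 2 sums as well, as given above. By expression of cell cycle genes, 44 of 44 ASPC_Pre cells of batch 9_1 were in G1, against 8 of 16 in batch 8_8, where 7 were in G2M. The part of cell cycle stage in the difference between the batches was not tested.

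Without batch in the model, 5 members were called. The members were split in direction (11 higher in IBA, 14 lower, median -0.74 against -0.12 over all genes). By contrast, of 43 S phase genes 41 had higher estimates in IBA (median 2.01) and 22 were called, all higher, as were 3.69% of all genes. Those with the largest changes were Ung, Dscc1, Hells, Cdca7 and Cdc45, at 4.16, 3.25, 3.08, 2.95 and 2.85. Among the regulators, 5 of 15 histone mRNA factors were called, all higher in IBA, and these were Casp8ap2, Slbp, Cstf2, Eri1 and Ncbp1, with changes of 1.83, 1.76, 1.42, 1.31 and 1.27. The chaperones Nasp, Mcm2 and Chaf1a, which carry new histones to DNA, were higher by 2.36, 2.35 and 1.40 (3 of 16 called).

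Live-seq called 3 of 13465 genes (0.0223%) and no member for IBA against ASPC_Pre, with 3 members and 3.95% of the genes at an unadjusted p below 0.05. DESeq2 called 2.06% of the genes and 2 members, Hist1h1c and Hist1h2bc. The estimates of Hist1h1c and Hist1h2bc were -6.10 (SE 1.79, adjusted p = 0.993) and -7.75 (SE 2.47, adjusted p = 1.000) and that of Hist1h2ak was 8.04 (SE 3.01, adjusted p = 1.000). The sums did not overlap for any of the 3. Hist1h2bc had 0.637, 0.925 and 14.7 CPM in IBA and 357.1 and 443.3 CPM in ASPC_Pre. Hist1h1c had 0.509, 7.73 and 24.1 CPM in IBA and 409.4 and 532.45 CPM in ASPC_Pre. An interaction between this contrast and the technique was not found for any member, nor for any of 13565 genes (0%) (lowest adjusted p = 1.000), and Hist1h3d had an unadjusted p of 0.019 for a difference of -5.67.

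**Figure D3:**
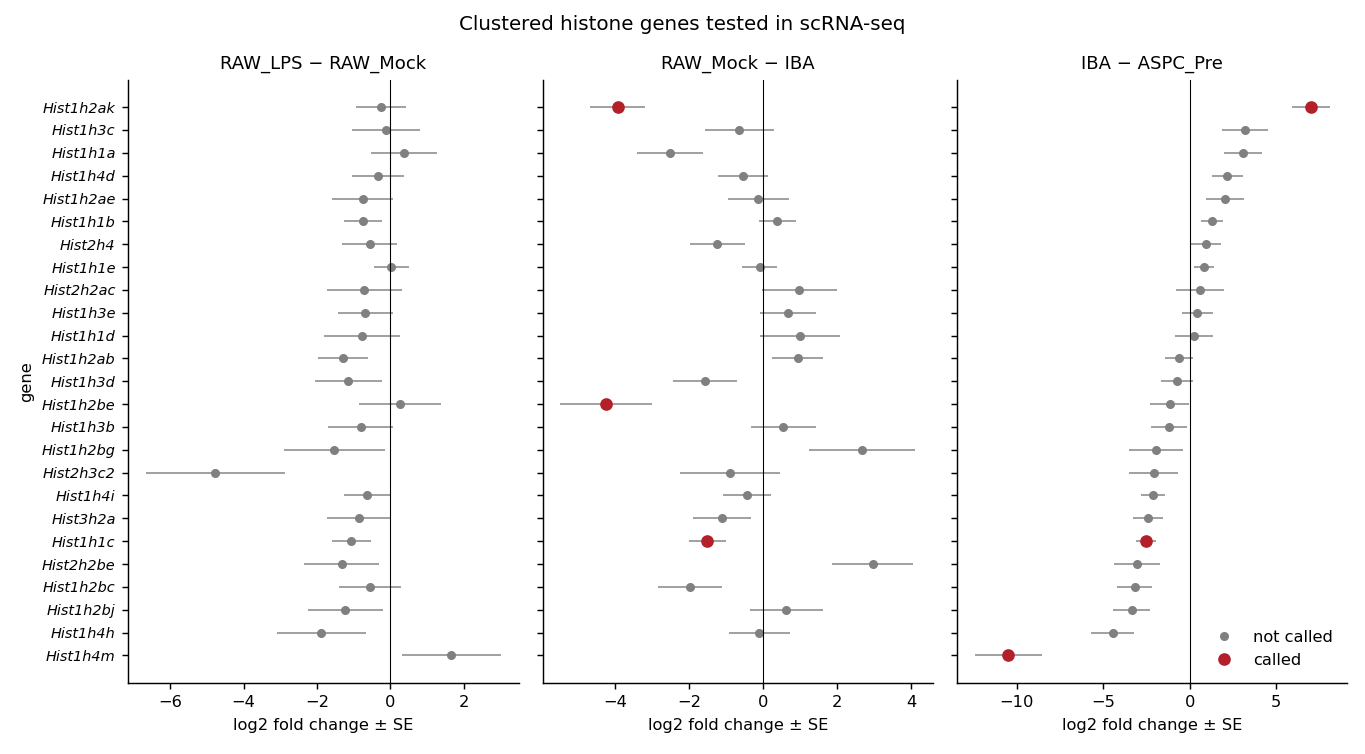
Changes of the 25 tested clustered histone genes in scRNA-seq, as log2 fold change with its SE, for RAW_LPS against RAW_Mock, RAW_Mock against IBA and IBA against ASPC_Pre. Red points passed the threshold (0, 3 and 3 genes), and Hist1h4m is left out of the middle panel because both states had no count.

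After 2 days of adipogenic induction, Hist1h2bc was higher in ASPC_Post than in ASPC_Pre cells of the same batch with either technique. It had 446.7 CPM before (counting interval 438.3 to 455.1) and 677.3 CPM after (665.04 to 690) in scRNA-seq batch 9_1, and 443.3 CPM (433.04 to 453.8) and 628.65 CPM (616.4 to 641.1) in Live-seq batch 9_4. Each technique had a single batch with both states, so there is no test, and all intervals here and below are exact Poisson intervals that cover counting error only. Hist1h1c was lower after induction, at 306.9 against 339.55 CPM in scRNA-seq and 355.8 against 409.4 CPM in Live-seq.

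The H4 gene Hist1h4i was higher, at 51.3 against 29.8 CPM and 46.2 against 29.9 CPM, and Hist1h1e lower, at 14.1 against 23.6 CPM and 7.51 against 12.1 CPM. The S phase list was near its level before, at 1318 against 1218 CPM in scRNA-seq and 1365 against 1440 CPM in Live-seq. The sample labels give 9 pairs of Live-seq samples as the same ASPC before and after induction. The study, which matched such samples by genetic barcodes, reports fewer pairs, and which of the label pairs it counted was not determined. Across the 9 label pairs, Hist1h2bc was higher in the second sample in 8, with medians of 348.5 and 741.1 CPM. The lowest and highest values were 68.5 and 692.04 CPM before and 377.99 and 1371 CPM after. Hist1h1c was higher in the second sample in 4 of the 9, with medians of 196.1 and 216.4 CPM.

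Cytoplasm and whole cells were compared next, since Live-seq draws from the cytoplasm. Across states, 24 of 25 members had lower estimates in Live-seq, with a median of -1.36 on the log2 scale against -0.34 for all 13564 genes, of which 26.3% were higher in Live-seq. All of these genes, members included, had passed a filter on counts in scRNA-seq states. That filter favours lower estimates in Live-seq, so the direction is given as a description. None of the members was called, against 68 genes (0.501%), all lower in Live-seq. At an unadjusted p below 0.05 there were 10 members and 1035 genes (7.63%), and DESeq2 called none of the members and 0.634% of the genes. Hist1h3c had -2.41 (SE 0.68, adjusted p = 0.127), Hist1h2ak -1.65 (SE 0.69, adjusted p = 0.506) and Hist1h1e -1.20 (SE 0.42, adjusted p = 0.334). Hist1h2bc and Hist1h1c were near 0, at -0.10 (SE 0.80) and -0.12 (SE 0.85), with a sign that changed with the settings.

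The techniques also differed in the amount of input, and Live-seq used more PCR cycles. Compartment, input and amplification cannot be told apart here. Batch and technique coincide except in batch 8_8, which held both. Within it, the summed level in Live-seq was 0.55 times that in scRNA-seq for RAW_Mock, 0.24 times for RAW_LPS and 0.64 times for IBA, but 3.35 times for ASPC_Pre. The last rested on Hist1h2bc, with 357.1 CPM in Live-seq and 35.5 CPM in scRNA-seq, and Hist1h1c, with 532.45 and 80 CPM, in 18 and 16 cells. The S phase list had 4141 and 4173 CPM in the same sums. A test within batch 8_8 alone called no gene.

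The relation to the cell cycle was examined cell by cell within batches, with S and G2M scores computed from lists that hold no clustered histone gene. Correlations are Spearman's rho across cells of a batch, which share a library preparation and are not replicates, and are given as a description. In scRNA-seq RAW_LPS cells, the summed level followed the S score with rho of 0.74, 0.64 and 0.51 in 15, 46 and 88 cells, and the G2M score with 0.75, 0.69 and 0.45. In RAW_Mock cells the values for S were 0.54, 0.41 and 0.27 in 16, 46 and 95 cells. In IBA cells the values were higher for G2M than for S in each of the 3 batches, with 0.57, 0.56 and 0.66 for G2M against 0.04, 0.31 and 0.19 for S in 15, 45 and 93 cells, and leaving out the cell against its label gave 0.56 and 0.29 in batch 9_1. The 70 IBA cells of the sampling test that had not been sampled did not share this, with 0.25 for S and -0.00033 for G2M.

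In ASPCs of batch 9_1 there was no such relation. The correlation with S was -0.09 in 44 ASPC_Pre cells and -0.13 in 35 ASPC_Post cells, and that with G2M -0.26 and -0.19. The 16 ASPC_Pre cells of batch 8_8 had 0.45 and 0.31. In Live-seq the values for S were scattered from -0.59 to 0.80 in batches of 10 to 63 cells, where a cell had counts for few members.

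**Figure D4:**
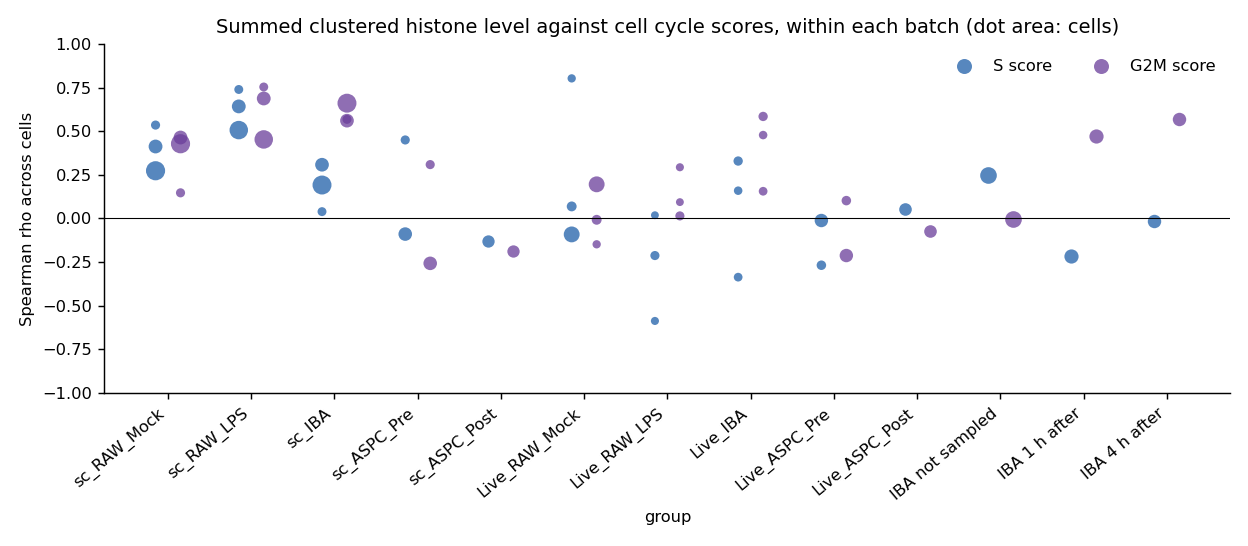
Spearman's rho across cells between the summed level of the clustered histone genes and the S score (blue) or the G2M score (purple), for each batch and state with at least 10 cells. Dot area grows with the number of cells, and all 9 values of the lines in standard scRNA-seq are above 0 for either score, whereas those of ASPCs in batch 9_1 are below 0.

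By called phase, the level pooled over batches was lowest in G1 and highest in G2M in the 3 states of the lines in standard scRNA-seq. In scRNA-seq RAW_LPS cells the pooled level was 20.2 CPM in 71 G1 cells, 260 CPM in 12 S cells and 326.5 CPM in 66 G2M cells. RAW_Mock had 55.6, 192.3 and 242.7 CPM in 20, 76 and 61 cells, and IBA 85.2, 199.7 and 288.2 CPM in 13, 79 and 61 cells. The order of S and G2M was not general. The median RAW_LPS cell had 201.03 CPM in S and 122.05 CPM in G2M, and in IBA cells of the sampling test that had not been sampled the pooled level was 473.99 CPM in 26 S cells and 369.8 CPM in 41 G2M cells. Hist1h1e and Hist1h1b carried much of this. In RAW_LPS cells Hist1h1e had 5.25, 117 and 177.9 CPM and Hist1h1b 0.0346, 39.7 and 34.2 CPM in G1, S and G2M. Hist1h2bc did not share the pattern, with 13.96, 5.83 and 3.19 CPM in RAW_Mock, highest in G1. In RAW_LPS it had 4.84, 13.2 and 0.763 CPM in G1, S and G2M, highest in S. In IBA it had 12.1, 9.38 and 13.2 CPM, highest in G2M. ASPC_Pre cells had 888.1 CPM in 52 G1 cells and 338.2 CPM in 7 G2M cells, the latter all of batch 8_8, and Hist1h2bc had 418.5 and 41.5 CPM. Live-seq did not share the order, as RAW_Mock had 213.5 CPM in 13 G1 cells, 97.4 CPM in 44 S cells and 118 CPM in 47 G2M cells.

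Gene by gene, most members followed the scores in the lines and a few did not. Among members counted in at least 10% of scRNA-seq RAW cells, 22 of 24 had a mean rho above 0 with the S score (median 0.27) and 23 with the G2M score. The corresponding counts in IBA cells were 23 and 28 of 28, with a median of 0.30 for G2M, and in ASPCs 15 and 12 of 31, with a median of -0.01 for S. In RAW cells the mean rho with the S score was 0.55 for Hist1h1b, 0.51 for Hist1h4d, 0.47 for Hist1h1e and 0.45 for Hist1h2ae, above 0 in 6 of 6 batches and states for each. It was -0.14 for Hist1h2bc and 0.01 for Hist1h4i, above 0 in 2 of 6 for either.

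Pairs of members showed the same division. Over the 9 batch and state groups of the lines in scRNA-seq, mean rho across cells was 0.73 for Hist1h1e with Hist1h1b and 0.71 for Hist1h1e with Hist1h4d, and -0.20 for Hist1h2bc with each of Hist1h1e and Hist1h4d. In ASPCs Hist1h2bc and Hist1h1c had a mean rho of 0.45 over 3 groups, from 0.36 to 0.54. The genes that follow the cycle here thus include some whose annotated transcript runs past the hairpin, such as Hist1h1e and Hist1h4d, as well as Hist1h1b, whose end is not annotated.

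Outside the clusters, the genes most like the summed level included 5 of the G2M list and 2 of the S phase list among the 10 highest. Over 12 scRNA-seq groups and 13540 genes, the highest mean rho across cells was that of Smc4, a condensin subunit, at 0.50, above 0 in 12 of 12 groups. Aurkb, Fbxo5, Top2a and Pclaf followed at 0.49, 0.47, 0.47 and 0.46, and Rad51ap1, Esco2, Cdk1, Kif11 and Rrm2 at 0.45, 0.44, 0.42, 0.42 and 0.40. The median of the mean rho was 0.25 for the G2M list, 0.16 for the S phase list and -0.0024 for all genes. The histone mRNA factors had a median of 0.04 and the chaperones of 0.08, with Asf1b, which carries histones H3 and H4, highest among the latter at 0.32. The replication-independent histones had 0.11, with H3f3b, which encodes H3.3, highest at 0.35.

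The last question was whether sampling of the cytoplasm left a trace in the members. Pooled over cells, the summed level was 403.2 CPM in 70 IBA cells that had not been sampled (counting interval 395.3 to 411.3), 364.4 CPM in 49 cells at 1 h (356.4 to 372.5) and 402.8 CPM in 43 cells at 4 h (393.03 to 412.8). There was a single batch, and hence no test. The groups differed in composition. Hist1h2bc had 55.6, 35.5 and 12.1 CPM in cells not sampled, at 1 h and at 4 h, Hist1h1c 78.4, 67.1 and 35.3 CPM, and Hist1h4i 15.4, 8.39 and 5.91 CPM, in the same order each time.

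Hist1h1e, Hist1h2ak and Hist1h1b were highest at 4 h. Hist1h1e had 94.3, 115 and 137 CPM, Hist1h2ak 43.1, 26.8 and 68.5 CPM and Hist1h1b 32.3, 28.4 and 43.2 CPM. By called phase, 26, 29 and 29 cells were in S and 41, 16 and 12 cells in G2M. In S cells Hist1h1e had 115.1, 93.3 and 111.6 CPM and Hist1h1b 48.4, 26.8 and 39.7 CPM. In G2M cells Hist1h1e had 81.9, 172.8 and 228.4 CPM and Hist1h1b 22.5, 38.2 and 60.6 CPM. The part of cell cycle phase in these changes was not tested. Reads were counted without molecular identifiers, and counting intervals leave out the spread between cells, which was wide, as the highest 5 of the 43 cells at 4 h held 39.8% of the members' CPM.

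The share of cells with a count was more alike between the groups. Hist1h2bc was counted in 62.9%, 55.1% and 53.5% of cells and Hist1h1c in 74.3%, 73.5% and 81.4%. The S phase list had 7499, 9197 and 8478 CPM, and rho of the summed level was 0.25, -0.22 and -0.02 with the S score and -0.00033, 0.47 and 0.57 with the G2M score in the 3 groups. For comparison, the IBA cells of the other scRNA-seq batches had 11.2 CPM of Hist1h2bc and 26.2 CPM of Hist1h1c when pooled, so that the cells not sampled were above these in both genes and the cells at 4 h were near them in Hist1h2bc.

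**Figure D5:**
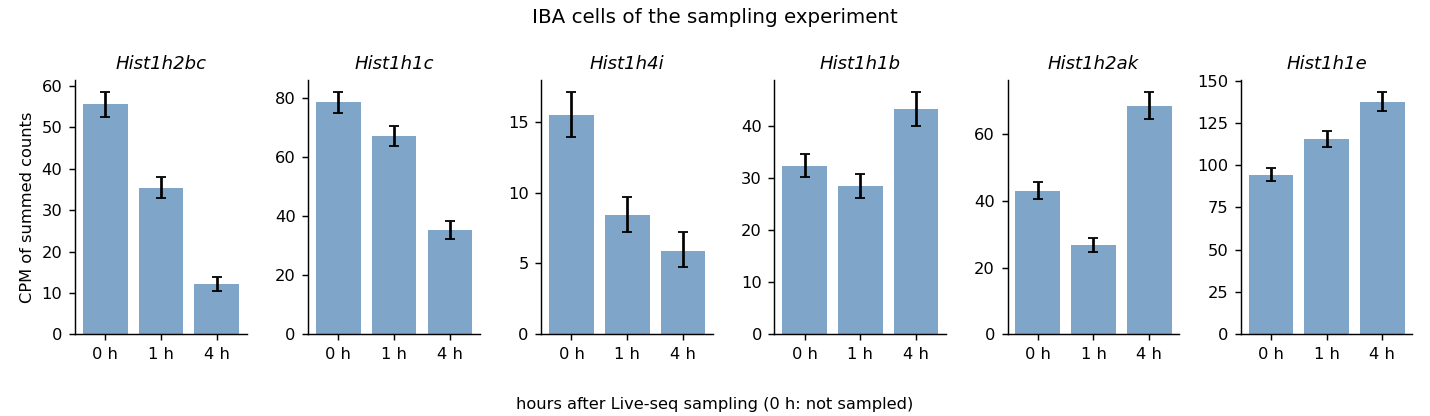
Level in CPM of 6 clustered histone genes in IBA cells that were not sampled (0 h) and in those collected 1 h and 4 h after Live-seq sampling. Bars are pooled values of a single batch with exact Poisson intervals at 95%, and Hist1h2bc stands at 55.6 CPM in cells not sampled and 12.1 CPM at 4 h.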

How the data were processed

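Live-seq and scRNA-seq libraries of single mouse cells were made with Smart-seq2 chemistry from oligo-dT primed RNA, with more PCR cycles for Live-seq. The authors aligned reads to mm10 with STAR 2.6.1c after bcl2fastq 2.19.1, merged lanes, and made a gene count table with HTSeq from reads with a unique position, ignoring strand, on Ensembl annotation. The deposited values are raw counts per gene and cell, with no molecular identifiers.

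Counts were summed over the cells of each batch and state with at least 3 cells, leaving out 85 ribosomal protein and 20 negative-control genes. Genes with at least 2 counts in 15% of the cells of a scRNA-seq state, and past edgeR's filterByExpr (minimum proportion 0.05), were tested with edgeR 4.0.16 (R 4.3.3; TMM, quasi-likelihood, prior count 0.125), with state and batch as terms within a technique and state alone between techniques. A call needed a Benjamini-Hochberg adjusted p below 0.05 and a log2 fold change beyond 1. Each SE is the absolute log2 fold change divided by the square root of the F value of edgeR's test. It was not estimated separately and is very large for members without counts. The labels give a batch to every state it holds, and deviations within a batch were correlated at 0.29, 0.46 and 0.52 in scRNA-seq and at 0.03 to 0.23 in Live-seq, so the batch served as replicate block. DESeq2 1.42.0, other normalisations and filters, cells thinned to 50000 counts and the omission of each batch were alternatives. Without the cell against its label was added after seeing the data.

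S and G2M scores and phases came from Seurat 5.3.0. Tables used numpy 2.4.6, pandas 2.3.3, scipy 1.17.1 and matplotlib 3.10.9. Exon lengths, positions and hairpins are from GENCODE vM21 on GRCm38 and promoters from RefSeq on GRCm38.p6. The fits were tested on simulated data. Genes named are the 10 members with the highest mean CPM per kb over scRNA-seq sums, each member called, the leading member of each family, up to 5 called genes of each other list, the 10 genes most like the summed level, and the 3 members highest and lowest by change after sampling. The members and lists were chosen with earlier results of these data known. Clustered histone genes outside the count table were not analysed here. Total counts per cell ranged from 38451 to 2671609.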

Additional observations from a re-analysis of the deposited data

Results flagged for a closer look

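In 23 sets of 4 or 5 Live-seq sums of 1 state, 10 held a sum far from the others by Dixon's criterion. Its rate of about 1 in 20 is for independent sets of normally distributed values. Sums near 0 CPM and sets that share a batch do not meet this, so the 10 flags are not set against that rate. In RAW_LPS, 6 of these were the sum of the wild-type line (batch 5Reseq, 11 cells), whose summed level was 156.4 CPM, with 32.74 CPM of Hist1h2bc, 64.9 CPM of Hist1h1c, 11.94 CPM of Hist1h4i, 0.5777 CPM of Hist1h4h and 0.1926 CPM of Hist1h2be. The seventh was Hist1h3c in batch 9_4, at 0.2071 CPM, which is a single count. Cell line and batch cannot be told apart here.

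In RAW_Mock, Hist1h4d stood out in batch 6 at 50.51 CPM in 8 cells, and Hist1h4i and Hist1h4h in batch 8_8 at 4.646 and 0.1106 CPM, the last from 2 counts in 1 cell.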

How the results depend on the processing

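The Live-seq tests rest on few sums a state, some of few cells. Members called for RAW_Mock against IBA in scRNA-seq numbered 6 with DESeq2 and 6 with edgeR's newer fit in place of 3, beside 35.2% and 39% of all genes, and 1 to 2 without a batch. For IBA against ASPC_Pre they numbered 6 with DESeq2 (15.1% of all genes), 12 with the newer fit and 0 to 5 without a batch, and 5 without the replicate block, which changed no other count of members. In Live-seq, DESeq2 called 2 for LPS and 2 for IBA against ASPC_Pre, where thinned cells gave 1, and keeping low counts gave 1 between techniques. The causes were not tested. Genes called for LPS in scRNA-seq were 1.23% of those tested, against 5.26% with DESeq2, 3.03% with the newer fit, 3.29% thinned, 0.258% without the block and 0% to 0.135% without a batch. For IBA against ASPC_Pre 11.2% were called, against 19.4% with the newer fit, 7% without the block and 0.322% to 11.3% without a batch, and for RAW_Mock against IBA 33.7%, against 22.2% without batch scRNA. In Live-seq LPS gave 0%, and 4.79% with DESeq2 and 0.296% thinned. RAW_Mock against IBA gave 2.27%, and 11% with DESeq2, 5.38% with the newer fit, 5.92% thinned, 4.92% without the block and 0.0971% to 2.82% without a batch. IBA against ASPC_Pre gave 0.0223%, and 2.06%, 0.0594%, 0.472% and 0.0817% in the same order, and 0% to 0.0223%. Between techniques 0.501% were called, against 0.278% thinned, 0% in batch 8_8 alone and 0.214% to 0.899% without a batch. With low counts kept more genes were tested, of which 0.895%, 0.00414%, 0.0538% and 2.79% were called for LPS in scRNA-seq and Live-seq, for IBA against ASPC_Pre in Live-seq and between techniques. The sign turned for Hist1h1e after LPS in scRNA-seq (-0.05 thinned, and -0.43 and -0.00 without batches 9_1 and 8_8, up to 0.40 without batch scRNA) and Live-seq (0.15 thinned), for Hist1h1c in Live-seq RAW_Mock against IBA (1.97 without batch 8_8, down to -2.55 without batch 9_4), and between techniques for Hist1h1c (0.03 with the newer fit, 0.11 and 0.24 without batches 6 and 7, down to -1.36 without batch 5Reseq) and Hist1h2bc (0.05 with DESeq2, 0.06 with the newer fit, 0.07 with RLE factors, 0.01 with all genes kept, and 0.10, 0.01, 0.42 and 0.26 without batches 6, 8_8, 9_1 and 9_4, down to -0.80 without batch 5Reseq), none of them called. The summed level in CPM, as the mean over cells, thinned, and with all genes in the total, was 1214, 1238 and 737.6 in scRNA-seq ASPC_Post, 830.5, 819.2 and 707.5 in Live-seq ASPC_Pre and 1098, 1160 and 786.9 in ASPC_Post, and with all genes 76.7 in RAW_Mock. In the sampling test it was 421.2 thinned and 385.8 without the highest cell in cells not sampled, 415.7 as the mean over cells, 404.9 thinned and 341.1 without the highest cell at 1 h, and 427.003 as the mean and 362.2 without the highest cell at 4 h. Members counted per thinned cell numbered 3 in scRNA-seq RAW_Mock and 3 in IBA, 6 in ASPC_Pre and 6 in ASPC_Post, 5 in Live-seq ASPC_Post, and 6, 5 and 6 in the sampling test, and other settings give no such value. The mean correlation with the S phase list's CPM in place of the S score was 0.50 in RAW_LPS, 0.01 in IBA, -0.30 in scRNA-seq ASPC_Post and -0.35 in Live-seq ASPC_Post, and Pearson's r was -0.38 and -0.33 in the last 2.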
